A study of Rattus norvegicus with 3 samples.

Results

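Mitochondrial ribosomal protein genes were followed in the cell bodies of cultured rat hippocampal neurons. Members were taken by symbol: every probe set of the array with exactly 1 gene symbol in the platform annotation, where that symbol is Mrpl or Mrps followed by a number. This gave 97 probe sets of 73 genes, among 20832 single-symbol probe sets of 14218 genes in all. Of the 73 genes, 46 carry an Mrpl symbol (large subunit, 58 probe sets) and 27 an Mrps symbol (small subunit, 39 probe sets). All 73 are listed under the same symbol in the RefSeq gene table of the GRCr8 rat assembly.

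The mitochondrial ribosome translates the few proteins that mitochondrial DNA encodes, all of them core subunits of the respiratory chain and the ATP synthase. Its RNA comes from mitochondrial DNA, whereas its proteins are encoded in the nucleus, made on cytosolic ribosomes and imported. The small subunit decodes the mRNA, and the large subunit forms the peptide bond and guides the new chain out through a tunnel at the inner membrane. Some of the proteins have counterparts in the bacterial ribosome, and the others were added to the particle in mitochondria. Neurons depend on oxidative phosphorylation for firing and synaptic transmission, so mitochondrial translation bears on their energy supply.

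Untreated somata make up the series, as 3 arrays in 1 group with no second group to compare. Sprague-Dawley embryos of day 19 were the source of the neurons, which were kept 14 days in dispersed primary culture before a glass pipette cut off the soma of 1 pyramidal cell for each array. Each RNA was amplified as antisense RNA, with the Ambion Illumina TotalPrep kit in the last round, and 5 µg were labelled with biotin for an Affymetrix rat expression array. The labels name neither animal nor dish, and the somata are called cell 1, cell 2 and cell 3 after their replicate number.

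A level is given as a percentile, the place of a gene among all 14218 genes on the same array, where 50 is the array median. Probe affinity enters a percentile as much as RNA amount does, so the percentile gives the place of a gene on the array and is no ranking of transcripts. Differences between cells instead set a gene against itself, on the log2 scale after quantile normalisation. The median of its probe sets is taken on each array. For a gene with 3 or more, it can fall on different probe sets in different cells. With 3 cells in 1 group, an exact sign-flip test cannot go below p = 0.25, and genes are not replicates. Values are therefore given with their SD over the 3 cells and without a p-value.

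Several facts about the arrays bear on every value that follows. The array medians were 7.23, 7.16 and 7.09 log2 in cells 1, 2 and 3. Background was drawn from 113 genes that neurons should not use, 28 of them olfactory, vomeronasal and taste receptors and 85 of other organs. A gene counted as above background where it exceeded their 95th percentile, which lay at 9.67, 9.96 and 9.47 log2. Probe sets of the same gene hardly read alike: over 1 pair for each of the 4526 genes with several probe sets, Pearson r within an array was 0.0119, 0.0457 and 0.0748. Over the 18 members with several probe sets it was 0.159, -0.208 and 0.0411. The gene annotation and the summary of the probes were not tested as sources of this.

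Cell 1 stood apart from the other two. Across all genes, cell 1 correlated with cell 2 at r = 0.47 and with cell 3 at r = 0.44, whereas cells 2 and 3 reached 0.68. Neuron markers, 10 genes such as Mapt and Snap25, had median percentiles of 83.1, 86.3 and 86.1. Lowest of them were Map2 at 28.7, 17.7 and 67.5 and Syt1 at 31.9, 24.7 and 7.08, neither above background in any cell. The 8 pyramidal markers stood at 56.5, 61.4 and 84.1, with Neurod2 at 99.9 in each cell while Camk2a read only 26.5, 19.6 and 26.2. The 7 interneuron markers stood at 41.7, 70.1 and 36.7, and the 7 oligodendrocyte markers at 72.0, 65.9 and 57.8. In cell 1, 4 of 8 microglia markers (C1qc, Csf1r, Itgam, Tyrobp) were above background against 0 in cells 2 and 3, and the list had medians of 74.3, 51.6 and 47.7 over a range of 1.65 to 99.3 in cell 1. Astrocyte markers (7 genes) were at 77.3, 30.9 and 37.4 and vascular markers (6 genes) at 79.5, 56.4 and 46.2. The vascular marker Vwf read 99.8, 99.8 and 99.7 and was above background in all 3 cells. In cell 2, the interneuron marker Vip (97.0) and the oligodendrocyte markers Mag (94.0) and Sox10 (94.8) were above background, where no gene of either list was in cells 1 and 3. The part of these markers in the results below was not tested.

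The mitochondrial ribosomal proteins read in the upper part of each array, but rarely near its top. In cells 1, 2 and 3 their median percentile was 57.1, 62.8 and 67.4, with a mean of 62.4 ± 5.16 (SD, n = 3). Without cell 1 the mean was 65.1. In cell 1 members ran from 1.32 to 98.3, in cell 2 from 4.97 to 95.1 and in cell 3 from 3.46 to 97.9, so they covered nearly the whole of each array. Over the median of the array in all 3 cells were 31 of the 73, or 42.5%, where 26.4% of all genes were. Below it in all 3 were 7 (9.59%), where 25% of all genes were. Without cell 1, 41 members were above and 12 below the median in both remaining cells, and without cell 3, 36 were above and 15 below. Such counts cannot fall when fewer cells must agree. The shares of all genes over 2 cells were not taken, so these counts cannot be set beside the shares over 3 cells. With the brightest probe set of each gene in place of the median probe set, the mean of the median percentiles was 57.6. Then 23 members were above and 9 below the array median in all 3 cells. The shares of all genes were not taken for that setting.

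**Figure D1:**
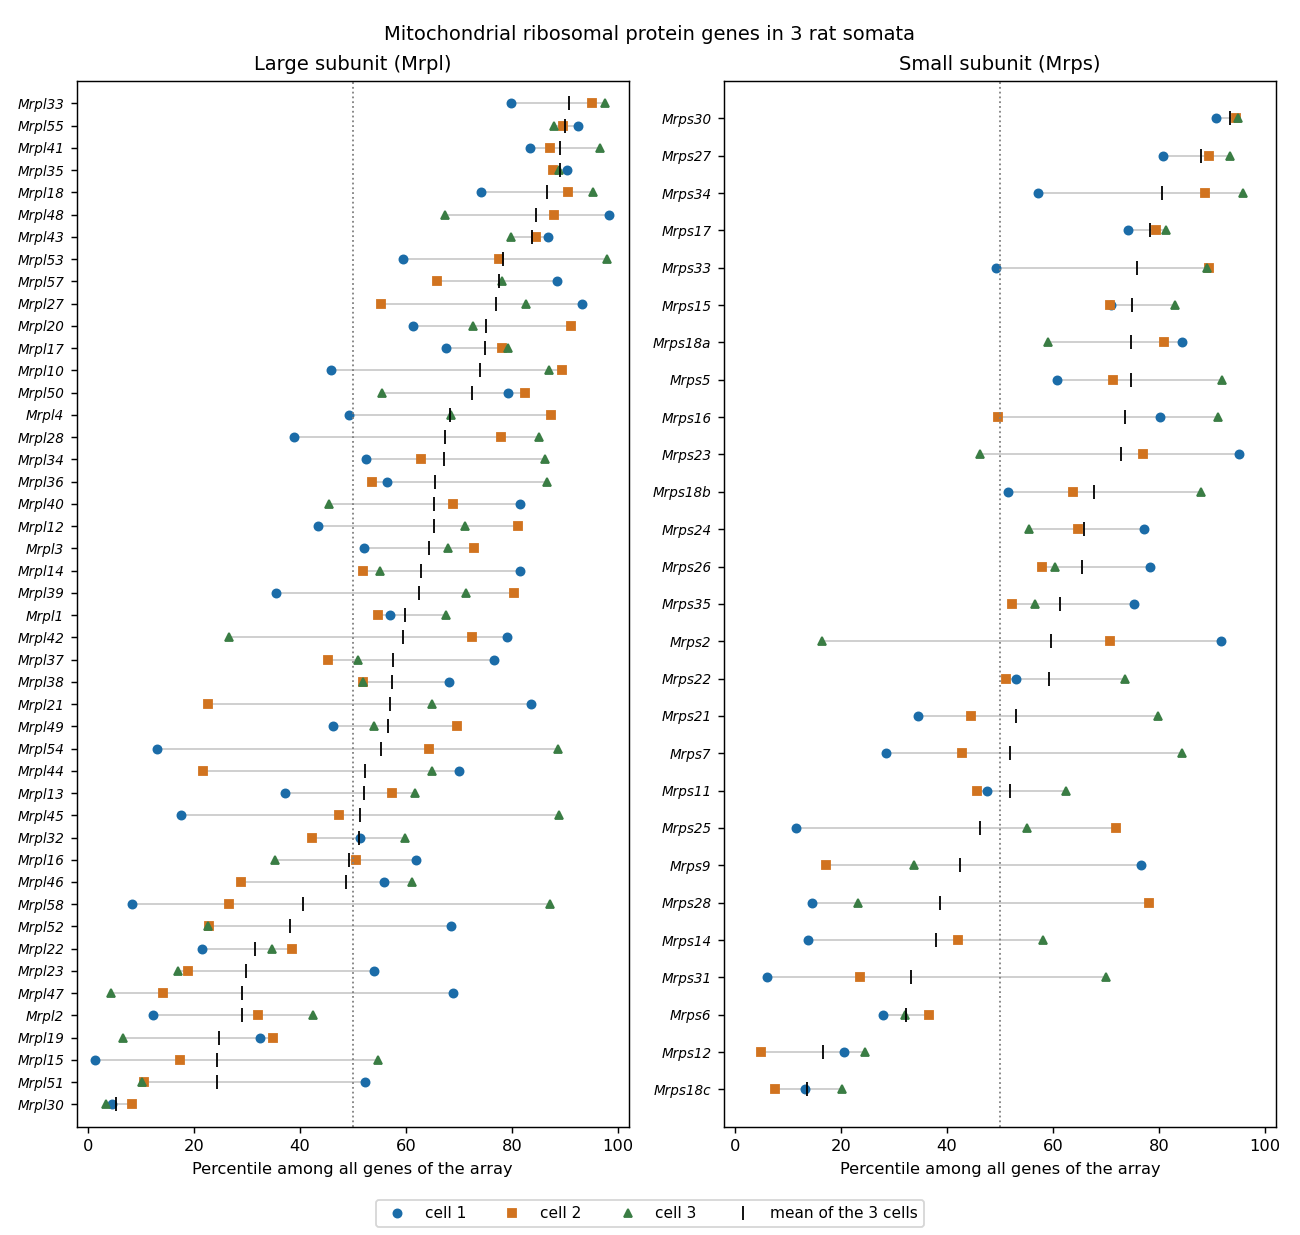
Percentile of each of the 73 mitochondrial ribosomal protein genes among all genes of the array (x axis, 50 is the array median, dotted), with large subunit genes on the left and small subunit genes on the right, sorted by their mean. Points are cells 1, 2 and 3, the tick is the mean of the 3 cells and the grey line spans them. Mrps30 and Mrpl55 lie near the top and Mrpl30 near the bottom in every cell, whereas genes such as Mrps2, Mrpl58 and Mrpl54 span most of the axis.

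High readings were few. Above background were 3 of 73 members in cell 1, 2 in cell 2 and 9 in cell 3, against 7.4%, 6.1% and 10.5% of all genes on these arrays. No member was above it in all 3 cells, where 2.13% of all genes were, and 61 (83.6%) were above it in none, the same share as among all genes (83.6%). Mrps30 and Mrpl33 were above background in cells 2 and 3 and not in cell 1 (2.74% of members, next to 2.21% of all genes). That share leaves out the 2.13% of all genes that were above background in all 3 cells. In cell 1 it was Mrpl27, Mrpl48 and Mrps23 that passed, and none of these passed in cells 2 or 3. That is 4.11% of the members, next to 4.12% of all genes above background in cell 1 alone. The 5% of genes that read highest held 2, 1 and 5 members in cells 1, 2 and 3. None was among them in all 3 cells, against 1.39% of all genes, and without cell 1 only Mrpl33 was. In cells 1 and 2 the members were below the share of all genes in the counts above background, and in cell 3 slightly above it. Most readings of members lay within the range of the silent genes, so that a low reading cannot be told from absence.

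In the top 25% of all 3 arrays were 7 members (9.59%), next to 8.64% of all genes: Mrpl33, Mrpl35, Mrpl41, Mrpl43, Mrpl55, Mrps27 and Mrps30. Mrps30 had the highest mean. Its percentiles were 90.7, 94.5 and 94.98 and its deposited values 9.39, 10.06 and 10.42 log2, and all 3 cells were close. Despite its symbol it is a large subunit protein of the mammalian particle. Mrpl33, the counterpart of bacterial L33, read 79.9, 95.1 and 97.6, with cell 1 clearly lower than the other two. Mrpl55, the counterpart of bacterial L31, read 92.4, 89.7 and 88.0 and was even over the cells.

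Mrpl41, which bacteria lack, stood at 83.3, 87.2 and 96.6 and was highest in cell 3. Mrpl35, the counterpart of bacterial L35, had the narrowest spread among the 10 highest members, at 90.4, 87.8 and 88.8. Mrps27, an RNA-binding pentatricopeptide repeat protein of the small subunit, stood at 80.7, 89.4 and 93.4. That order, lowest in cell 1 and highest in cell 3, also held for Mrpl18 and Mrps34. The 3 probe sets of Mrps27 did not share it. Their deposited values were 8.87, 9.55 and 10.09 log2, 8.55, 6.72 and 10.63 log2, and 6.67, 9.32 and 6.60 log2. The value of Mrps27 came from a different probe set in each cell. Mrpl18, which binds the structural RNA of the central protuberance, read 74.1, 90.5 and 95.3. Mrps34, a mitochondrion-specific protein needed for a stable small subunit, went from 57.1 in cell 1 to 88.7 and 95.8 in the others. Mrpl43 was high and even (86.9, 84.5 and 79.8), and Mrpl48 ran the other way, from 98.3 through 88.0 to 67.4.

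The bottom 25% of all 3 arrays held 3 members (4.11%), where it held 7.65% of all genes. Lowest was Mrpl30, the counterpart of bacterial L30, at 4.54, 8.29 and 3.46 with deposited values of 5.05, 5.31 and 4.75 log2. Mrps18c followed at 13.2, 7.63 and 20.3, and Mrps12 at 20.5, 4.97 and 24.5. Mrps12 is the counterpart of S12, the decoding-site protein that sets the accuracy of translation in bacteria. These 3 genes were low in each cell. Of the 3 probe sets of Mrps18c, however, 1 stood at 51.1 in cell 1 among single-symbol probe sets.

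The other low members were uneven. Mrpl51 (mitochondrion-specific) read 52.3, 10.6 and 10.2, and Mrpl47, a tunnel-exit protein, read 69.0, 14.2 and 4.44. Both were near or above the array median in cell 1 alone. Mrpl15, at 1.32, 17.4 and 54.7, and Mrpl2, at 12.3, 32.2 and 42.6, were lowest in cell 1. Mrpl15 is a counterpart of L15 and Mrpl2 of L2, a protein at the peptidyl transferase centre. Mrpl19, a counterpart of L19 at the interface of the subunits, read 32.6, 34.9 and 6.69.

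Grouped by symbol, Mrpl and Mrps genes could not be told apart by level. The median percentile of the 46 Mrpl genes was 58.2, 60.1 and 67.5 in cells 1, 2 and 3 (62.0 ± 4.92, SD, n = 3). That of the 27 Mrps genes was 57.1, 63.9 and 62.5 (61.1 ± 3.57). The difference, large minus small, was 1.13, -3.73 and 5.07 points, a mean of 0.823 ± 4.41, so it changed sign between cells and was smaller than their spread. Both subunits had members at each end: 5 Mrpl and 2 Mrps genes were in the top 25% throughout, and 1 Mrpl and 2 Mrps genes in the bottom 25%.

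Symbol and place in the particle disagree for Mrps30 and Mrps18a, both of which sit in the large subunit. Grouped by place, 48 large subunit genes had medians of 60.5, 63.6 and 67.5 and 25 small subunit genes 53.1, 57.9 and 62.5. The difference became 7.41, 5.64 and 5.07 points (6.04 ± 1.22), with the large subunit higher in 3 of 3 cells. The comparison therefore turned on where 2 genes were counted. Grouped by symbol again, but with Dap3, Ptcd3, Chchd1 and Aurkaip1 added to the Mrps genes and Gadd45gip1 to the Mrpl genes, the mean difference was -2.99 points, next to 0.823 without them. Both changes at once were not run.

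These other-symbol proteins read as follows. Dap3, a GTP-binding small subunit protein first described in cell death, was at 65.7, 55.3 and 69.8. Ptcd3, a pentatricopeptide repeat protein, was at 7.41 in cell 1 but at 83.0 and 83.6 in the others. Chchd1 stood at 39.9, 64.5 and 62.7 and Aurkaip1 at 80.1, 58.3 and 74.1, and both belong to the small subunit. Gadd45gip1, of the large subunit, was low in each cell at 13.5, 6.64 and 34.1. None of the 5 was above background in any cell.

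Members classed as added in mitochondria read higher than those classed as inherited from bacteria, most clearly in cells 1 and 2. Mrps18a and Mrps18b, though related to bacterial S18, were classed as mitochondrion-specific, and Mrps18c as a counterpart. The 31 mitochondrion-specific members had medians of 68.6, 68.8 and 67.4, nearly the same in each cell. The 42 members with a bacterial counterpart had medians of 53.2, 54.2 and 66.3. The difference, counterpart minus specific, was -15.4, -14.7 and -1.11 points (-10.4 ± 8.03, SD, n = 3), so the mitochondrion-specific members were higher in 3 of 3 cells but hardly so in cell 3. Without cell 3 the mean was -15.0, and without cell 1 it was -7.89. Among the Mrpl genes the specific members stood at 68.6, 65.9 and 64.9 against 53.9, 55.3 and 68.0 for the 27 counterparts, so cell 3 ran the other way. Among the Mrps genes the specific members stood at 66.2, 74.5 and 71.8 against 47.5, 45.6 and 58.0 for the 15 counterparts, in the same direction in each cell. These specific Mrps genes include Mrps30 and Mrps18a, which sit in the large subunit. The comparison by place in the particle was not run.

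**Figure D2:**
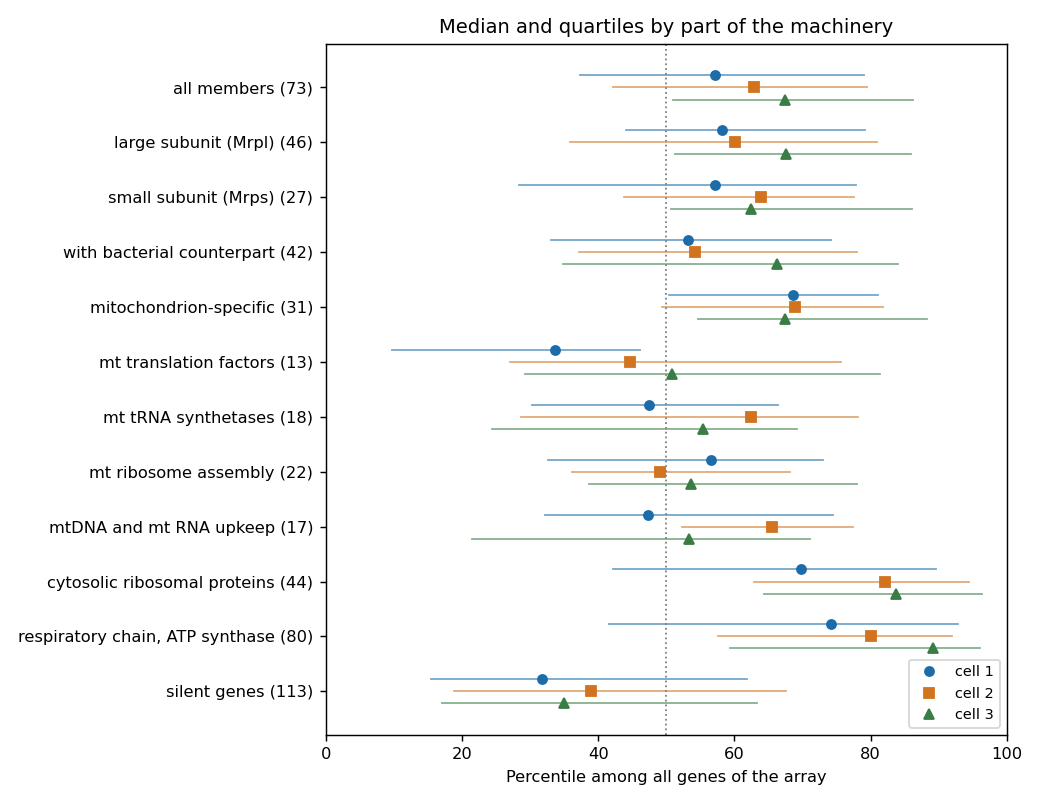
Median percentile (points) and quartiles (lines) of the members, their subdivisions and related gene lists in cells 1, 2 and 3, with the number of genes in brackets and percentile among all genes of the array on the x axis. The members (57.1, 62.8 and 67.4) lie between the silent genes (31.8, 39.0 and 35.0) and the respiratory chain (74.1, 80.0 and 89.2), and the lists overlap widely.

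By working site in the particle, the factor-binding stalk differed most between cells. The 4 stalk proteins, which help elongation factors onto the ribosome, had medians of 44.7, 79.3 and 87.9. Mrpl10, the base of the stalk, was at 45.9, 89.4 and 87.0, and Mrpl12, its flexible tip, at 43.5, 81.1 and 71.2. Mrpl53 ran 59.5, 77.6 and 97.9, and Mrpl54 ran 13.2, 64.3 and 88.8. All 4 were lowest in cell 1, the array that stood apart, and the share of all genes lowest there was not taken. For Mrpl12 this rested on 1 of its 2 probe sets, with deposited values of 6.55, 9.24 and 8.61 log2. The other had 7.55, 7.98 and 7.53 log2.

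The exit of the tunnel had medians of 53.9, 38.6 and 34.7 over 5 genes, but its genes took different courses. Mrpl23 read 53.9, 18.8 and 17.0 and, like Mrpl47, was highest in cell 1. Mrpl22 read 21.5, 38.6 and 34.7, and Mrpl17 was the high one at 67.6, 78.2 and 79.2. Mrpl45, which anchors the ribosome to the inner membrane, read 17.6, 47.4 and 88.9. These last 3 genes were lowest in cell 1, so the medians do not describe the order of most of the group.

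Around the peptidyl transferase centre, where the peptide bond forms, 5 genes had medians of 52.1, 55.3 and 68.0. Mrpl27, whose bacterial counterpart reaches into that centre, stood at 93.3, 55.3 and 82.6 and was above background in cell 1. Mrpl3 was at 52.1, 72.8 and 68.0, Mrpl4 at 49.3, 87.4 and 68.5, and Mrpl16 at 61.9, 50.6 and 35.4. No order of the cells was common to the 5 genes.

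The central protuberance, which contacts the small subunit, had medians of 68.6, 52.0 and 61.1 over 7 genes. Besides Mrpl18 and Mrpl48, it comprised Mrpl40 (81.5, 68.8 and 45.6), Mrpl38 (68.2, 52.0 and 52.0), Mrpl46 (56.0, 29.0 and 61.1) and Mrpl52 (68.6, 22.9 and 22.8). Mrpl58, a peptidyl-tRNA hydrolase that also sits in this part, read 8.34, 26.6 and 87.2. Mrpl58 and Mrpl18 were highest in cell 3, while Mrpl40, Mrpl48 and Mrpl52 were highest in cell 1. The 2 probe sets of Mrpl40 disagreed, with deposited values of 10.47, 9.58 and 6.49 log2 and of 6.74, 6.38 and 7.56 log2.

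The decoding site and mRNA path of the small subunit had medians of 54.2, 44.2 and 59.0 over 6 genes. Mrps5, at the mRNA entry, read 60.8, 71.3 and 92.0 and was above background in cell 3. Mrps24 stood at 77.3, 64.7 and 55.5, Mrps7 at 28.6, 42.8 and 84.4, and Mrps9 at 76.6, 17.2 and 33.8. Mrps11 was closest to even at 47.5, 45.6 and 62.5, and Mrps12 was the lowest of the group.

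The 3 Mrps18 paralogues, all related to bacterial S18, took separate places. Mrps18a (in the large subunit) read 84.3, 80.9 and 59.1, Mrps18b (in the small subunit) read 51.6, 63.9 and 87.8, and Mrps18c (the closest in position to S18) read 13.2, 7.63 and 20.3. Mrps18c was lowest of the 3 in each cell. The order of the other two was reversed in cell 3. Whether RNA of 1 paralogue hybridises to probes of another was not tested.

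Between cells, members moved about as often as other genes. More than 1 log2 higher in cell 2 than in cell 1 were 19 members (26.0%), where 24.9% of all genes were, and 15 (20.5%) were lower by as much, where 21.8% of all genes were. From cell 1 to cell 3 the counts were 26 higher (35.6%; all genes 28.5%) and 15 lower (20.5%; all genes 21.9%). From cell 2 to cell 3 they were 20 higher (27.4%; all genes 19.4%) and 10 lower (13.7%; all genes 17%). The median difference of the members was 0.27, 0.52 and 0.19 log2 for these comparisons, and that of all genes 0.14, 0.26 and 0.07. These are 1 soma against another, and 2 of the 3 comparisons share cell 1.

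Higher in both cells 2 and 3 than in cell 1 by more than 1 log2 were 16 members (21.9%; all genes 14.7%). They were 11 large subunit genes (Mrpl2, Mrpl10, Mrpl12, Mrpl15, Mrpl18, Mrpl28, Mrpl33, Mrpl39, Mrpl45, Mrpl54 and Mrpl58) and 5 small subunit genes (Mrps14, Mrps25, Mrps31, Mrps33 and Mrps34). Lower in both were 11 members (15.1%; all genes 14.5%), namely Mrpl14, Mrpl23, Mrpl27, Mrpl37, Mrpl47, Mrpl48, Mrpl51, Mrpl52, Mrps2, Mrps9 and Mrps23. Both subunits thus had genes in each direction. For 2 of the 11 a single probe set ran the opposite way by over 1 log2: the brightest probe set of Mrpl51 had deposited values of 7.38, 8.59 and 9.14 log2, and 1 of the 3 of Mrpl37 had 7.09, 8.68 and 8.73 log2. Their direction therefore depended on the probe set. Among the 16 genes, Mrpl12 rested on 1 of its 2 probe sets, as given above. A range of at most 1 log2 over the 3 cells was found for 23 members (31.5%; all genes 29%), among them Mrps30, Mrpl35, Mrpl55 and Mrpl30. These named genes have 1 probe set each. For others of the 23 the median was even although the probe sets disagreed. Those of Mrpl49 had deposited values of 8.63, 6.50 and 6.73 log2 and of 5.66, 9.54 and 7.96 log2. Those of Mrps15 had 9.29, 10.95 and 11.27 log2 and 6.80, 5.17 and 6.32 log2.

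**Figure D3:**
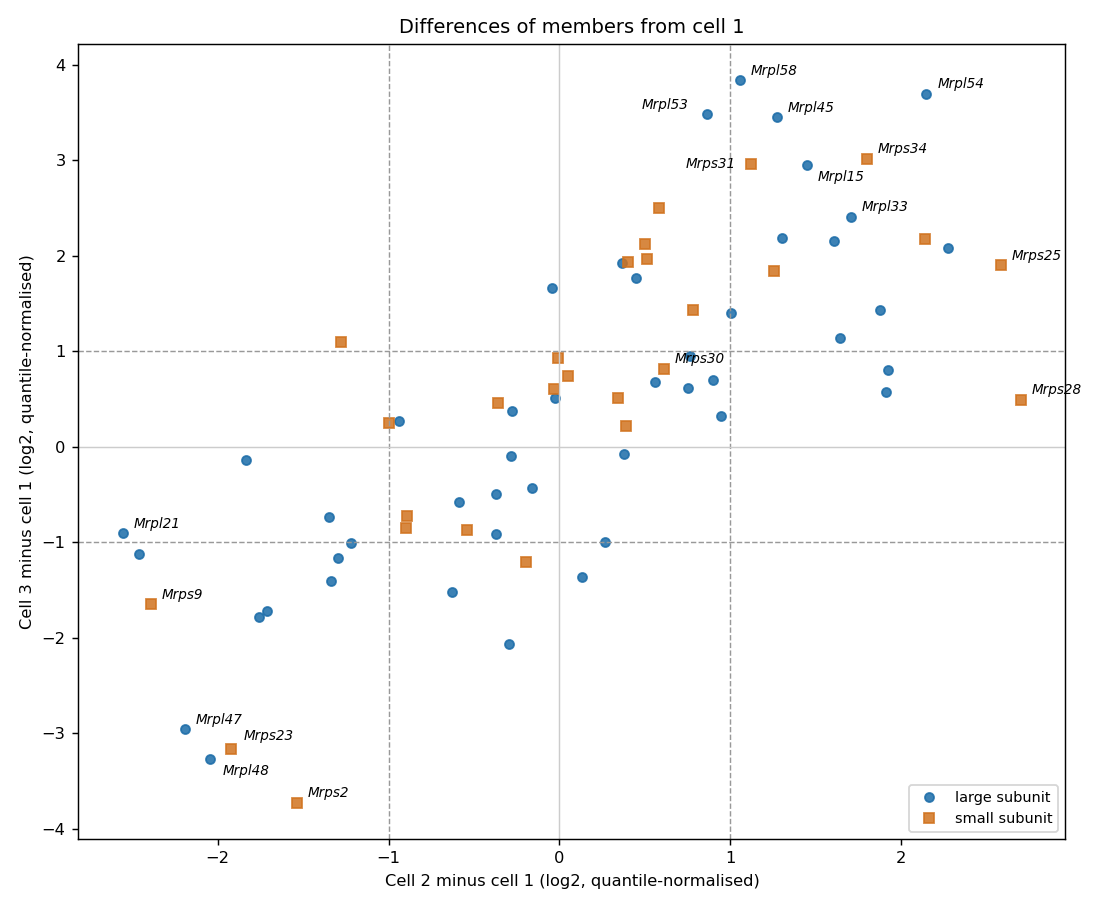
Difference of each member from cell 1 in quantile-normalised log2, with cell 2 minus cell 1 on the x axis and cell 3 minus cell 1 on the y axis, for large subunit (circles) and small subunit genes (squares). Dashed lines mark a difference of 1 log2. Because both axes subtract the same cell 1, points spread along the diagonal by construction. The 16 members in the upper right corner and the 11 in the lower left corner come from both subunits.

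The gene with the largest range was Mrpl58. Its quantile-normalised values were 5.30, 6.35 and 9.14 log2, so cell 3 was 3.84 above cell 1. Mrps2, the counterpart of bacterial S2, went the other way with 9.60, 8.06 and 5.87 log2, a range of 3.73. Of its 3 probe sets 1 differed, with deposited values of 5.86, 8.06 and 5.75 log2. That probe set gave the value of Mrps2 in cell 2, whereas the value in cell 1 came from another. The range of Mrps2 therefore mixes probe sets. The stalk gene Mrpl54 had 5.63, 7.78 and 9.32 log2, a range of 3.70.

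Mrpl53, its neighbour at the stalk, had 7.53, 8.39 and 11.02 log2, a range of 3.48 in which cell 3 was far above the other two. Mrpl45 had 5.88, 7.15 and 9.33 log2, a range of 3.45. Mrpl48 had 11.20, 9.16 and 7.93 log2, a range of 3.27. In each of these 6 genes cell 2 lay between cells 1 and 3, and cell 1 was lowest in 4 and highest in 2. The 6 were picked for their range over these same cells. The share of all genes with that order was not taken.

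Over the members, r between cells was 0.48 for cells 1 and 2, 0.21 for cells 1 and 3 and 0.65 for cells 2 and 3, next to the values for all genes given above. Spearman's rho was 0.43, 0.18 and 0.59, against 0.44, 0.40 and 0.63 over all genes. These are correlations across genes, which are not independent and whose probe affinity is the same on each array. The levels of the members spanned an SD of 1.33, 1.21 and 1.40 log2 within a cell, against 1.55, 1.53 and 1.55 for all genes. The median SD of a member over the 3 cells was 0.92 log2, against 0.77 for all genes. It was 0.50 without cell 1 and 0.66 without cell 3.

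Readings of several probe sets were compared for the 18 members that have them. Their highest and lowest probe set differed by a median of 18.5 percentile points in their mean over the cells, against 28.8 for the 4526 genes with several. The gap passed 50 points for 3 of the 18 (16.7%) and for 916 of all such genes (20.2%). The 3 were Mrps26, Mrps15 and Mrpl51. The probe sets of Mrps26 stood at 22.3 and 91.0, and those of Mrps15 at 26.2 and 93.9. Mrpl51 had 4 probe sets, from 6.82 to 72.3. With the brightest probe set in place of the median, the mean percentile of Mrps26 was 88.0 in place of 65.6, that of Mrps15 92.0 in place of 74.9, and that of Mrpl51 66.4 in place of 24.3. The level of these 3 genes was therefore not settled by the array. A small gap between means can also hide opposite readings. The probe sets of Mrpl49 stood at 79.7 and 14.6 in cell 1 and at 33.3 and 89.0 in cell 2.

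**Figure D4:**
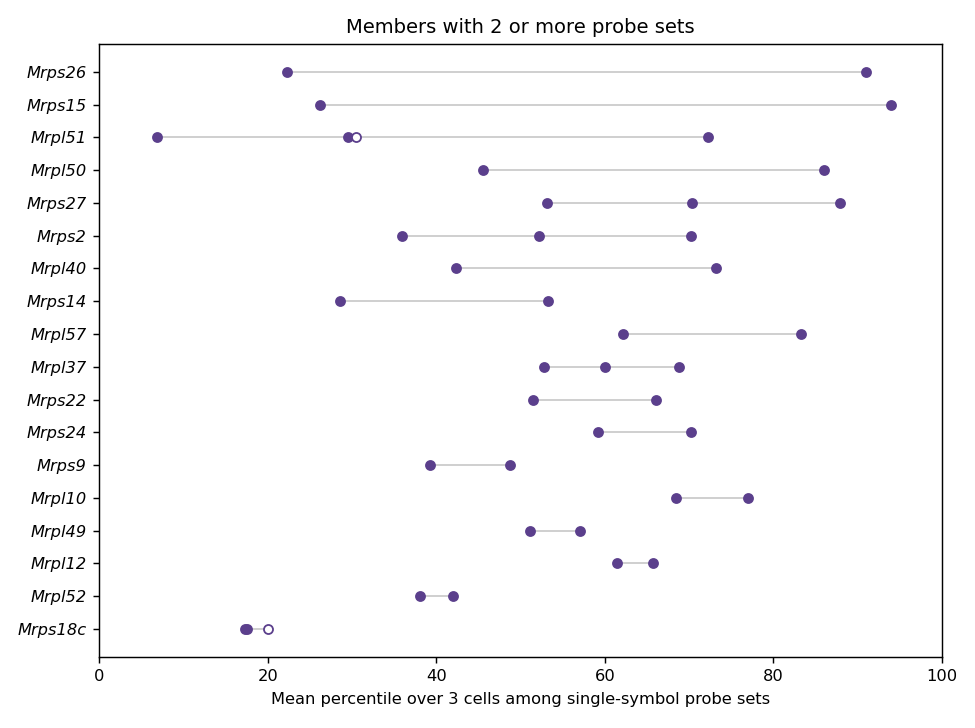
Mean percentile over the 3 cells among single-symbol probe sets (x axis) of each probe set of the 18 members that have 2 or more, sorted by the gap between the lowest and the highest. Open circles are probe sets that the manufacturer marks as able to match several transcripts. The gap was over 50 points for Mrps26, Mrps15 and Mrpl51 and small for genes such as Mrps18c. A small gap between means does not show agreement within a cell. In cell 1 the probe sets of Mrps18c stood at 51.1, 16.3 and 8.21.

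Set beside the other ribosome of the cell, the members read lower. The 44 cytosolic ribosomal protein genes had median percentiles of 69.7, 82.1 and 83.7. Members were lower by 12.6, 19.2 and 16.3 points, a mean difference of -16.1 ± 3.30 (SD, n = 3), which had the same sign in 3 of 3 cells. They were also below the 80 nuclear genes of the respiratory chain and ATP synthase (74.1, 80.0 and 89.2), with differences of -17.0, -17.1 and -21.8 points (-18.6 ± 2.70). Cytosolic ribosomal proteins were above background in all 3 cells in 9 of 44 cases and respiratory chain genes in 13 of 80, next to 0 of the 73 members. As these lists rest on different probes, the differences are of array readings, not of transcript numbers.

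Pooled, other genes of mitochondrial protein synthesis and of mitochondrial DNA and RNA upkeep read lower than the ribosomal proteins. Over 70 such genes in 4 lists, the medians were 47.0, 55.0 and 54.0, and the members lay 10.05, 7.87 and 13.4 points higher (10.4 ± 2.76, in 3 of 3 cells). Not every list was lower in every cell. In cell 2 the list for mitochondrial DNA, transcription and RNA (65.5) was above the members (62.8), and the synthetases (62.4) were near them. In cell 1 the assembly factors (56.5) were near the members (57.1). Above background were 3, 2 and 5 of the 70 in cells 1, 2 and 3, with 0 in all 3 cells, so these genes too were seldom clear of the silent ones.

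The 13 translation factors had medians of 33.7, 44.6 and 50.8. Highest of them was Gfm1, the elongation factor that moves the ribosome along the mRNA, at 70.2, 85.8 and 86.5. Lowest was Mtfmt, the enzyme that formylates the initiator tRNA, at 4.45, 27.1 and 29.3. The 18 aminoacyl-tRNA synthetases and related enzymes had medians of 47.4, 62.4 and 55.3. They ran from Tars2, which charges the threonine tRNA, at 80.6, 96.2 and 85.6, to Yars2, which charges the tyrosine tRNA, at 28.3, 2.16 and 4.78.

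The 22 assembly factors of the ribosome had medians of 56.5, 49.1 and 53.6. Tfb1m, which methylates the small subunit RNA, was highest at 75.6, 95.9 and 93.5 and above background in 2 cells. Mterf4, which brings a methyltransferase to the large subunit, was lowest at 15.52, 48.2 and 12.1. The 17 genes for mitochondrial DNA, transcription and RNA had medians of 47.4, 65.5 and 53.4. Among these Pnpt1, an exoribonuclease, read highest (98.6, 83.8 and 68.8) and Tefm, a transcription elongation factor, lowest (3.15, 8.95 and 23.9).

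Promoters were drawn from the RefSeq promoter table of GRCr8, which reaches from 250 bases before to 50 bases after a start site and which held 59 of the 73 members. A start site of another gene on the opposite strand lay within 1000 bases upstream for 18 of the 59 (30.5%), where it did for 10.4% of all 27457 promoters and 13.8% of those whose genes are on the array. Such genes share a divergent promoter region, and 14 of the partners were measured. The pair that joins both subunits was Mrpl46 and Mrps11, and the pair whose levels lay farthest apart was Mrpl47 and Ndufb5, so these regions are shown, with the stretch between the start sites of the pair in capitals. Mrpl46 is given from chr1:142116981-142117280 on the minus strand and Mrpl47 from chr2:117447312-117447611 on the minus strand, both 5′ to 3′.
Mrpl46: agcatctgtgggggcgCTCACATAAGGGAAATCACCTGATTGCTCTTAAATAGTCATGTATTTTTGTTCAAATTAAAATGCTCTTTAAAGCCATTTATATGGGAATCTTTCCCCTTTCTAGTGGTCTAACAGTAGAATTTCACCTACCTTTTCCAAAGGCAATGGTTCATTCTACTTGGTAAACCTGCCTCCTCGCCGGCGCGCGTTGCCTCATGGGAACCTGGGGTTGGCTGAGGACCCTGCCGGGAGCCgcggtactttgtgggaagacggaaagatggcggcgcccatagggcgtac
Mrpl47: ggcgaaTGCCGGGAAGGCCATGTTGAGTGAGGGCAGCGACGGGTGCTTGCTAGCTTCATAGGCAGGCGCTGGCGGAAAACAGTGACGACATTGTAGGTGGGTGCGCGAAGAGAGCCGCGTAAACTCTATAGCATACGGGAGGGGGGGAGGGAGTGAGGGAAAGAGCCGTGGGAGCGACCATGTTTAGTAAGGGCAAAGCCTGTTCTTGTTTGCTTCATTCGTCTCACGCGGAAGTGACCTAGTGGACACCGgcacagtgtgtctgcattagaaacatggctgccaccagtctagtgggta

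The capitals span 234 bases between Mrpl46 and Mrps11 and 244 between Mrpl47 and Ndufb5. Mrpl46 and Mrps11, the latter a mRNA-path protein of the small subunit, read 56.0 and 47.5 in cell 1, 29.0 and 45.6 in cell 2, and 61.1 and 62.5 in cell 3. They were near each other in cells 1 and 3 and apart in cell 2. Mrpl47 read 69.0, 14.2 and 4.44 while Ndufb5, a subunit of respiratory complex I, read 95.6, 91.5 and 96.8.

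Readings were mixed among further pairs. Mrpl30 and Mitd1, a protein of the cell division machinery, start 194 bases apart, and Mitd1 was low like Mrpl30 at 16.1, 8.95 and 7.91. Mrpl18 and Tcp1, a subunit of the cytosolic chaperonin, start 425 bases apart, and Tcp1 was high like Mrpl18 at 99.2, 91.5 and 83.2, though in the opposite order of cells. Mrps27 and Ptcd2, a mitochondrial pentatricopeptide repeat protein, start 91 bases apart, and Ptcd2 was at 97.9 in cell 1 but at 42.4 and 50.1 in the others.

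The same windows were searched, on both strands, for the letters of 2 motifs whose factors are known for nuclear genes of mitochondria. The NRF1 core GCATGCGC (reverse complement GCGCATGC) was in 5 of the 59 member promoters (8.47%), against 2.66% of all promoters and 4.30% of those of array genes. The 5 were Mrpl17, Mrpl22, Mrpl32, Mrpl44 and Mrps18b. The ETS motif CCGGAAGT (reverse complement ACTTCCGG), bound by GABP among others, was in 8 (13.6%), against 4.01% and 6.83%. These were Mrpl3, Mrpl27, Mrpl48, Mrpl52, Mrpl53, Mrps18c, Mrps26 and Mrps27, and no member held both motifs. The promoter of Mrps27, the highest of these 13 genes on the arrays, is shown from chr2:32473954-32474253 on the plus strand with the ETS letters in capitals.
Mrps27: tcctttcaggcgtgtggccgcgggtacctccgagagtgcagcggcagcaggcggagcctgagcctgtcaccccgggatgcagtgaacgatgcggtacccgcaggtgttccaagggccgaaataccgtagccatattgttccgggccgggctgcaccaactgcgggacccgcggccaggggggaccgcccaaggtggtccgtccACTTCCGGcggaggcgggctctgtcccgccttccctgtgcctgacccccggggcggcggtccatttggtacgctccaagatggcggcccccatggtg

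Members with the ETS letters had median percentiles of 73.5, 65.4 and 67.7, against 56.0, 64.3 and 70.0 for the members whose window lacked them. Members with the NRF1 letters were at 51.6, 42.4 and 64.9, against 58.2, 67.4 and 69.3 without. Neither motif sorted the members into high and low: the ETS letters were found both in Mrps27 and in Mrps18c, which read 13.2, 7.63 and 20.3. A match describes letters in the window and is no proof of a binding site.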

How the data were processed

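Per the labels, the authors made 1 log2 value per probe set with RMA 2.0, and the deposited log2 values of 3 arrays were used. Methods of the study describe pooled dendrites, with an upper-decile summary, median centring and a 10th-to-90th percentile scaling, which the deposited values do not show. The genome build was not given in the sources used here.

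Probe sets with 1 symbol were joined per gene by their median. Genes were ranked within an array for percentiles, and probe sets were quantile-normalised before differences between cells were taken. Genes named are the 10 highest and 8 lowest members by mean percentile, the 6 with the largest range, those with probe sets over 50 points apart, the Mrps18 paralogues, subunits with other symbols, the role groups, and the ends of each related list. The members and lists were chosen with earlier results of these data known, and the central protuberance list was corrected (Mrps30 out, Mrpl58 in) after values were seen. Alternatives changed the background, the normalisation, the probe sets and the cells. Scripts were tested on simulated data. Python 3.11.15, numpy 2.4.6, pandas 2.3.3, scipy 1.17.1 and matplotlib 3.10.9 were used. The number of arrays limits the precision.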

Additional observations from a re-analysis of the deposited data

How the results depend on the processing

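Counts above background depended most on how background was set. With the 90th percentile of the silent genes they were 9, 12 and 19 members in cells 1, 2 and 3 and 3 in all cells. With the 99th percentile they were 1, 0 and 3, and with the receptors as the only silent genes 5, 15 and 17, with 1 in all cells. Taking the brightest probe set of each gene gave 4 in cell 2. Leaving out 1 cell at a time, the count above background in all remaining cells was 0 to 2. In their top 5% it was 0 to 1 and below their median 8 to 15. Such counts cannot fall when fewer cells must agree. The median SD of a member was then 0.50 to 0.82 log2. The small subunit median was 57.2 when each probe set was a member, and the large minus small difference was 6.04 points by place in the particle. The alternatives for counts above or below the array median, for single members and for the comparisons with bacterial counterparts and other gene lists were chosen after seeing the data. Of the values under alternatives, 96 stayed close to the reported one and 20 moved. For single members 282 stayed and 10 moved, each of the 10 with the brightest probe set. A mean over cells counted as close if it shifted by less than its SD over the 3 cells. Leaving out 1 cell cannot shift a mean that far, so those values stayed close by construction. Mrpl47, for example, went from a mean percentile of 29.2 to 9.30 without cell 1 and counted as close. After median centring, 17 of 19, 15 of 15, 26 of 26, 13 of 15, 20 of 20 and 9 of 10 of the members more than 1 log2 apart remained so. The causes were not tested. No paired analysis was possible because there was only 1 group.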
